A study of Homo sapiens with 6 samples.

Results

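The 51 genes described here encode the core regulators of the cell division cycle: cyclins, cyclin-dependent kinases (CDKs) and their inhibitors, E2F transcription factors, pocket proteins, mitotic kinases and the machinery of anaphase. They were listed by gene symbol, with earlier results of these data known, and all 51 had a row among the 60664 Ensembl genes of the deposited count table. By function, 23 act mainly at the G1/S transition and 27 at the G2/M transition, and CCNP, a little-studied cyclin, was kept apart. Of the 51, 50 had enough counts to be tested, among 15130 genes tested in all.

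Poly-A RNA was sequenced from SiHa PR cells, the parental form of SiHa, an established human cervical squamous carcinoma line that carries integrated human papillomavirus. The control group was SiHa PR (3 libraries), and the other group was SiHa PR P4HA3 (3 libraries), the same line made to overexpress P4HA3, an alpha subunit of collagen prolyl 4-hydroxylase. The comparison asks which transcripts differ when P4HA3 is raised in parental cells. The methods describe P4HA3 cDNA in a lentiviral pCDH vector and a doxycycline-inducible version, and do not state which of them, which promoter, or how many clones these libraries came from. Whether the controls carried an empty vector, and whether the replicates were separate cultures, is also not stated, so p-values measure only the spread between these samples, which may be technical.

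Total counts ran from 21773488 to 24939948 per library. P4HA3 stood at 3.53, 2.91 and 3.80 CPM (counts scaled to a common library total) in the controls and at 1932, 1989 and 1934 CPM in the P4HA3 libraries, a log2 fold change of 9.15 (SE 0.101, quasi-likelihood test of edgeR, Benjamini-Hochberg adjusted p = 3.19e-12), so each library matched its label. The growth protocol in the labels describes uterine smooth muscle, whereas the defining smooth muscle markers DES, MYH11 and CNN1 averaged 0.111, 0.165 and 0.0137 CPM in the controls. The sum of the 5 smooth muscle markers ran from 87.0 to 98.1 CPM in controls and from 86.6 to 103 CPM with P4HA3, nearly all of it SMTN. By library, DES had 1, 1 and 6 counts in controls and 2, 0 and 8 counts with P4HA3. MYH11 had 2, 1 and 9 counts against 7, 1 and 3. ACTG2 had 0, 1 and 30 counts against 40, 1 and 44, and was not called (adjusted p = 0.305). With the GC and length trend described below removed, 1 of the 2 smooth muscle markers tested was called higher, against 10.6% of all genes. The 10 squamous and epithelial markers summed to between 11462 and 13049 CPM in controls and between 10772 and 12267 CPM with P4HA3. Of the 8 of them tested, 4 were called lower (KRT6A, CDH1, KRT18, KRT17) and 0 higher, against 11.4% and 9.36% of all genes. With the GC and length trend removed, 3 were called lower and 1 higher, against 7.94% and 10.6% of all genes. The squamous markers KRT5 and TP63 lay below 1 CPM in both group means. The 5 fibroblast markers summed to between 166 and 176 CPM in controls and between 132 and 167 CPM with P4HA3, with 0 called. All 5 had a negative value (median log2 fold change -0.16). With the GC and length trend removed 1 of them was called lower, and so was 1 with a replicate block, against 7.94% and 14.4% of all genes. The 7 immune and endothelial markers summed to between 2.57 and 3.47 CPM in controls and between 1.33 and 1.65 CPM with P4HA3, nearly all of it PECAM1, which was called lower. The part of these markers in the results below was not tested.

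In dividing cells, D-type cyclins with CDK4 or CDK6 and then cyclin E with CDK2 phosphorylate the pocket proteins RB1, RBL1 and RBL2, which releases E2F factors to transcribe genes of DNA replication. Later, the MuvB complex with MYBL2 (B-MYB) and FOXM1 switches on the genes of mitosis, cyclin A and cyclin B activate CDK1, and the polo-like and aurora kinases build the spindle. The anaphase-promoting complex (APC/C) then destroys the mitotic cyclins and the inhibitor of separase, so that the chromosomes part and the cell returns to G1. In SiHa cells, as in other papillomavirus-positive cervical carcinoma cells, the viral E7 protein binds the pocket proteins and CDKN2A is known to be abundant.

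With P4HA3, called G2/M regulators were all higher, by small amounts, and called G1/S regulators went both ways. Of the 27 G2/M members, 13 rose and 0 fell, with a median log2 fold change of 0.23, and 23 had a positive value. Of the 22 G1/S members tested, 4 rose (CDK6, E2F5, E2F8 and CDKN1B) and 4 fell (CCNE1, E2F1, E2F2 and CDKN2A), with a median of 0.11. CCNP rose as well, which makes 18 of 50 members higher and 4 lower. Among all 15130 genes tested, 9.36% were called higher and 11.4% lower, with a median log2 fold change of 0.00555. The share of members called higher was therefore above that of all genes, and the share called lower was not. The counts by role below stand against the same shares of all genes. Counts of positive values have only the median of all genes beside them. A gene was called at an adjusted p below 0.05 by edgeR's quasi-likelihood test. At an unadjusted p below 0.05 the same test had 16 G2/M members higher and 0 lower, and 10 G1/S members higher and 6 lower, against 19.3% higher and 19.4% lower of all genes. DESeq2 called 16 of the 51 members higher and 5 lower, against 11.5% and 11.6% of the 13041 genes to which it gave an adjusted p. The even split of the G1/S calls was not kept by other methods. DESeq2 called 1 G1/S member higher and 5 lower, and limma-voom 2 higher and 4 lower. Of the G2/M members, DESeq2 called 14 higher and 0 lower, and limma-voom 13 higher and 0 lower. Shares of all genes were not computed for limma-voom. The 3 P4HA3 libraries lay wholly above the 3 controls in 22 members and wholly below them in 4, against 19.7% and 20.4% of all genes. CCNP was the only called member with at least a 2-fold change, and the next largest rise, that of CDK6, was 67.4%. In bulk RNA, a changed share of cells in a stage of the cycle and a changed amount of transcript per cell cannot be told apart.

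How far single calls rested on single libraries differed between members. AURKA, CCNA2, CCNB2, CDCA8 and TPX2 were called under all 15 alternative settings, and they were the 5 members with an adjusted p below 0.01, all higher, against 1.46% of all genes higher and 3.35% lower at that threshold. These 5 were also the only members called when control replicate 1, control replicate 2 or P4HA3 replicate 3 was left out, where 5.09%, 3.47% and 5.89% of all genes were called in either direction. In the other fits 19 members were called without control replicate 3, 29 without P4HA3 replicate 1 and 16 without P4HA3 replicate 2, against 20.8%, 35.9% and 14.3% of all genes. The number of members called thus moved with the number of calls over all genes, which was 20.8% with all libraries. The calls of CDC25C, PLK1, CDKN1B and E2F5 were lost without control replicate 3, those of CDK6, E2F5, E2F8, CDKN1B, CDKN2A and FBXO5 without P4HA3 replicate 2, and that of E2F5 also without P4HA3 replicate 1. All 27 G2/M members except PKMYT1, PTTG1 and WEE1 kept 1 sign in all 6 fits that left out a library, and so did all tested G1/S members except CDC25A, E2F4 and RBL2.

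Base composition moved with the comparison. Over all genes tested with a known GC content, the log2 fold change fell as GC content of the transcript rose (Spearman rho -0.58 over 15107 genes, which share the same 6 libraries). Libraries of 1 group also differed in this way: the deviation of a library from its group mean had a rho with GC content of 0.22, 0.38 and -0.52 in control replicates 1, 2 and 3, and of 0.45, -0.48 and 0.08 in P4HA3 replicates 1, 2 and 3. The median GC content was 51.1% for the G2/M members and 47.3% for the G1/S members, against 49.3% over all genes. Removing the trend of GC content and length from each library left 16 G2/M members higher and 0 lower (median 0.21), and 6 G1/S members higher and 2 lower (median 0.087), against 10.6% higher and 7.94% lower of all genes. CDK6, CCNB1, CDK1, FBXO5 and LIN9 were then no longer called higher, and E2F1 and CDKN2A no longer called lower. In turn, 10 members were called higher only with the trend removed: CCND1, E2F4, CDKN1C, CCNF, PKMYT1, AURKB, BIRC5, CDC20, UBE2C and ESPL1.

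Above 50% GC, 4 of 14 G2/M members were called higher with the deposited counts and 11 with the trend removed. At or below 50% GC, the numbers were 9 of 13 and 5. Among G1/S members, 0 rose and 4 fell of the 10 above 50% GC, and 4 rose and 0 fell of the 12 at or below it. P4HA3 replicate 2 was the highest of the 6 libraries in 14 of the 25 members at or below 50% GC, and the lowest of the P4HA3 libraries in 14 of the 25 above. Over both sides together, 9.36% of all genes were called higher and 11.4% lower, or 10.6% and 7.94% with the trend removed. The shares of all genes on each side of 50% GC were not computed. These splits therefore cannot be read as particular to the members.

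Many genes of the 2 phases are known to carry short control sequences near the start of transcription, namely the cell cycle genes homology region (CHR) bound by MuvB complexes, the E2F site and the CCAAT box. RefSeq promoter windows on GRCh38.p14, from 250 bases before to 50 bases after the start, were found for 37 of the 51 members. The letters of the CHR, TTTGAA or TTCGAA on either strand, stood in 11 of 20 G2/M windows (55.0%) and 2 of 16 G1/S windows (12.5%), against 16.6% of 27305 windows of all genes. The E2F letters, TTTGGCGC, TTTCCCGC or TTTGGCGG on either strand, stood in 5 of 16 G1/S windows (31.2%) and 0 of 20 G2/M windows, against 2.95% of all windows. CCAAT on either strand stood in 60.0% of G2/M windows, 31.2% of G1/S windows and 35.7% of all windows. Within the G2/M members the CHR letters stood in 5 of 10 windows of members called higher and 6 of 10 of those not called, and in 7 of 10 and 4 of 10 by the calls with the GC and length trend removed. The windows of 10 members are shown over the 100 bases before the start, read 5′ to 3′ on the gene's own strand, with the CHR, CCAAT and E2F letters in capitals. The first 4 are G2/M genes that rose, each with a CHR.
CCNB2 (chr15:59105046-59105145, plus strand): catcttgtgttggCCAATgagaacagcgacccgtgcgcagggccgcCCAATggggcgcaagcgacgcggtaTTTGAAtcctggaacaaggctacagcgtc
CDCA8 (chr1:37692416-37692515, plus strand): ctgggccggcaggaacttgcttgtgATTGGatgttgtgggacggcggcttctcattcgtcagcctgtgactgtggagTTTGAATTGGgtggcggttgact
PLK1 (chr16:23678789-23678888, plus strand): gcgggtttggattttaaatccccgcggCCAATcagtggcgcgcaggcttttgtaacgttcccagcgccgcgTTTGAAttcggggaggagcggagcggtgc
INCENP (chr11:62123911-62124010, plus strand): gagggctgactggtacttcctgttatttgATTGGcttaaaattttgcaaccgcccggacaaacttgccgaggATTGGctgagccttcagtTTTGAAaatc
In CDCA8, the CHR and a reversed CCAAT share 1 base. ESPL1 and CDC20 hold the same letters and were called only with the trend removed.
ESPL1 (chr12:53268199-53268298, plus strand): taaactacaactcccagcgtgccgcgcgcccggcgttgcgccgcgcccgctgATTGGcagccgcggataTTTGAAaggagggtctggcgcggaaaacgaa
CDC20 (chr1:43358881-43358980, plus strand): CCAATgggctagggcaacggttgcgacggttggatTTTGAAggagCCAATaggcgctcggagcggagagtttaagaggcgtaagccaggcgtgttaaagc
The next 2, both G1/S genes with an E2F site, fell.
E2F1 (chr20:33686386-33686485, minus strand): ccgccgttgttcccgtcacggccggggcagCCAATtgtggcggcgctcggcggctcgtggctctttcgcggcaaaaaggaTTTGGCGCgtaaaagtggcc
E2F2 (chr1:23531234-23531333, minus strand): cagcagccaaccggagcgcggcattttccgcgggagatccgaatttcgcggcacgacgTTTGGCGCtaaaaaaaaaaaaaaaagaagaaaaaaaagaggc
CDC25A and RBL1, with the same 8 letters TTTGGCGC, were not called.
CDC25A (chr3:48188418-48188517, minus strand): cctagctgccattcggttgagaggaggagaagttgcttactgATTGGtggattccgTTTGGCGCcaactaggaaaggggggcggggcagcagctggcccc
RBL1 (chr20:37095998-37096097, minus strand): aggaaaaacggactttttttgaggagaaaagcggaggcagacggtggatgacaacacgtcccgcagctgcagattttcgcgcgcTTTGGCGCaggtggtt

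Of the 9 genes that form the switch of CDK1 at the entry into mitosis, 5 rose and 0 fell. CCNA2, cyclin A2, which serves S phase and mitosis, stood at 71.1, 68.5 and 77.6 CPM in controls and at 101, 105 and 97.4 CPM with P4HA3. All P4HA3 libraries lay above all controls, by 39.5% (log2 fold change 0.48, SE 0.0641, adjusted p = 0.00177). CCNA2 lies on the minus strand of chr4:121816444-121823883 (GRCh38). CCNB1, cyclin B1, the main partner of CDK1, stood at 307, 281 and 298 CPM in controls and at 385, 342 and 347 CPM with P4HA3. Its groups did not overlap, and the log2 fold change was 0.28 (SE 0.0639, adjusted p = 0.0164), or 0.17 with the GC and length trend removed, where the adjusted p was 0.0621. CCNB2, cyclin B2, whose promoter is printed above, had nearly equal controls at 137, 138 and 138 CPM and rose to 171, 162 and 173 CPM (log2 fold change 0.29, SE 0.0519, adjusted p = 0.0061). CDK1, the kinase that drives mitosis, stood at 96.2, 90.2 and 102 CPM in controls and at 113, 135 and 120 CPM with P4HA3. The rise in CDK1 was 0.35 on the log2 scale (SE 0.0759, adjusted p = 0.0134), and 0.13 (adjusted p = 0.0525) with the trend removed.

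CDC25C, a phosphatase that activates CDK1, rose by 0.23 (adjusted p = 0.0338), with controls between 36.0 and 37.3 CPM and P4HA3 libraries between 41.4 and 45.3 CPM. The kinases that hold CDK1 back did not pass the test: WEE1 had a log2 fold change of -0.02 (adjusted p = 0.871) and PKMYT1 one of 0.06 (adjusted p = 0.538). CDC25B, a second activating phosphatase, had -0.07, and CCNF, a cyclin that works as an F-box protein, had 0.07. With the trend removed PKMYT1, at 67.3% the member with the highest GC content, had 0.36 and an adjusted p of 0.000545. CCNF then had 0.20 (adjusted p = 0.00829), and CDC25B changed sign to 0.11 without passing the test.

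Of the 8 mitotic kinases and members of the chromosomal passenger complex (CPC), 5 rose and all 8 had a positive value, with a median of 0.30. AURKA, the kinase of spindle poles, stood at 214, 194 and 205 CPM in controls and at 273, 257 and 268 CPM with P4HA3. The groups did not overlap, and the difference was 30.3% (log2 fold change 0.38, SE 0.0571, adjusted p = 0.0029). TPX2, which activates AURKA on spindle microtubules, stood at 455, 440 and 450 CPM in controls and at 580, 619 and 589 CPM with P4HA3, a log2 fold change of 0.41 (SE 0.055, adjusted p = 0.00179). AURKA and its activator thus both rose, without overlap of the groups and under all settings tried. PLK1, a polo-like kinase of mitotic entry and cytokinesis, stood at 260, 270 and 250 CPM in controls and at 322, 291 and 291 CPM with P4HA3. Its rise was smaller, 0.21 on the log2 scale (SE 0.0609, adjusted p = 0.0339), and 0.38 with the trend removed. PLK4, which starts the duplication of centrioles, is a low gene whose P4HA3 libraries, at 10.5, 17.9 and 13.7 CPM, overlapped the controls at 9.11, 10.6 and 11.1 CPM. Its log2 fold change of 0.45 did not pass the test (adjusted p = 0.0801).

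The CPC holds AURKB as its kinase and INCENP, CDCA8 (borealin) and BIRC5 (survivin) as its partners. The partners INCENP and CDCA8 rose. INCENP stood between 94.0 and 107 CPM in controls and between 115 and 128 CPM with P4HA3 (log2 fold change 0.29, adjusted p = 0.0168), and CDCA8 between 112 and 117 CPM against 137 to 148 CPM (0.32, adjusted p = 0.00583). AURKB did not pass the test at 0.05 (adjusted p = 0.584), with 83.9, 79.7 and 78.0 CPM in controls and overlapping values of 87.4, 82.2 and 80.1 CPM with P4HA3. For BIRC5 the groups did not overlap, but the difference of 0.15 did not pass the test either (adjusted p = 0.127). With the trend removed AURKB had 0.20 (adjusted p = 0.0125) and BIRC5 0.21 (adjusted p = 0.0154). Whether AURKB differed from its partners was not tested.

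Among the 6 genes of the APC/C pathway and separase, 1 rose, and in none of the 6 were the groups apart. FBXO5 (EMI1), an inhibitor of the APC/C, stood at 20.2, 21.4 and 26.2 CPM in controls and at 25.4, 34.4 and 30.0 CPM with P4HA3. The lowest P4HA3 library lay below the highest control, and the log2 fold change was 0.40 (SE 0.126, adjusted p = 0.0457), which the trend removal took to 0.23 (adjusted p = 0.0802). CDC20, the activator of the APC/C in mitosis, stood at 390, 386 and 347 CPM in controls and at 444, 384 and 400 CPM with P4HA3. Its difference of 0.13 did not pass the test (adjusted p = 0.205), and P4HA3 replicate 2 lay within the controls. FZR1, the activator of the APC/C in G1, had -0.10 (adjusted p = 0.233). UBE2C, the ubiquitin-conjugating enzyme of the APC/C, had 0.18 (adjusted p = 0.0852). PTTG1 (securin), the inhibitor of separase, had 0.05, and ESPL1 (separase) 0.10, neither past the test. With the trend removed CDC20, UBE2C and ESPL1 were called higher, at 0.30, 0.25 and 0.20, and FZR1 changed sign to 0.12 without passing.

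Of the 4 transcription factors upstream of the mitotic genes, FOXM1 and LIN9 rose and MYBL2 and LIN54 did not pass the test. FOXM1, the forkhead factor of G2/M genes, stood at 233, 233 and 218 CPM in controls and at 271, 270 and 272 CPM with P4HA3. The P4HA3 libraries were close together and above all controls, by 0.25 on the log2 scale (SE 0.0527, adjusted p = 0.0124). MYBL2 stood at 472, 507 and 450 CPM in controls and at 487, 419 and 442 CPM with P4HA3, so that the groups overlapped, and its difference of -0.08 did not pass the test (adjusted p = 0.404). LIN9, a core subunit of MuvB, stood at 13.6, 14.2 and 14.1 CPM in controls and at 16.7, 21.3 and 18.7 CPM with P4HA3, a log2 fold change of 0.44 (SE 0.1, adjusted p = 0.0161). LIN54, the MuvB subunit that binds the CHR, had 0.30 (adjusted p = 0.136), with overlapping groups. With the trend removed LIN9 had 0.19 (adjusted p = 0.0785) and MYBL2 changed sign to 0.12, neither called, and FOXM1 had 0.37 (adjusted p = 0.000118).

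**Figure D1:**
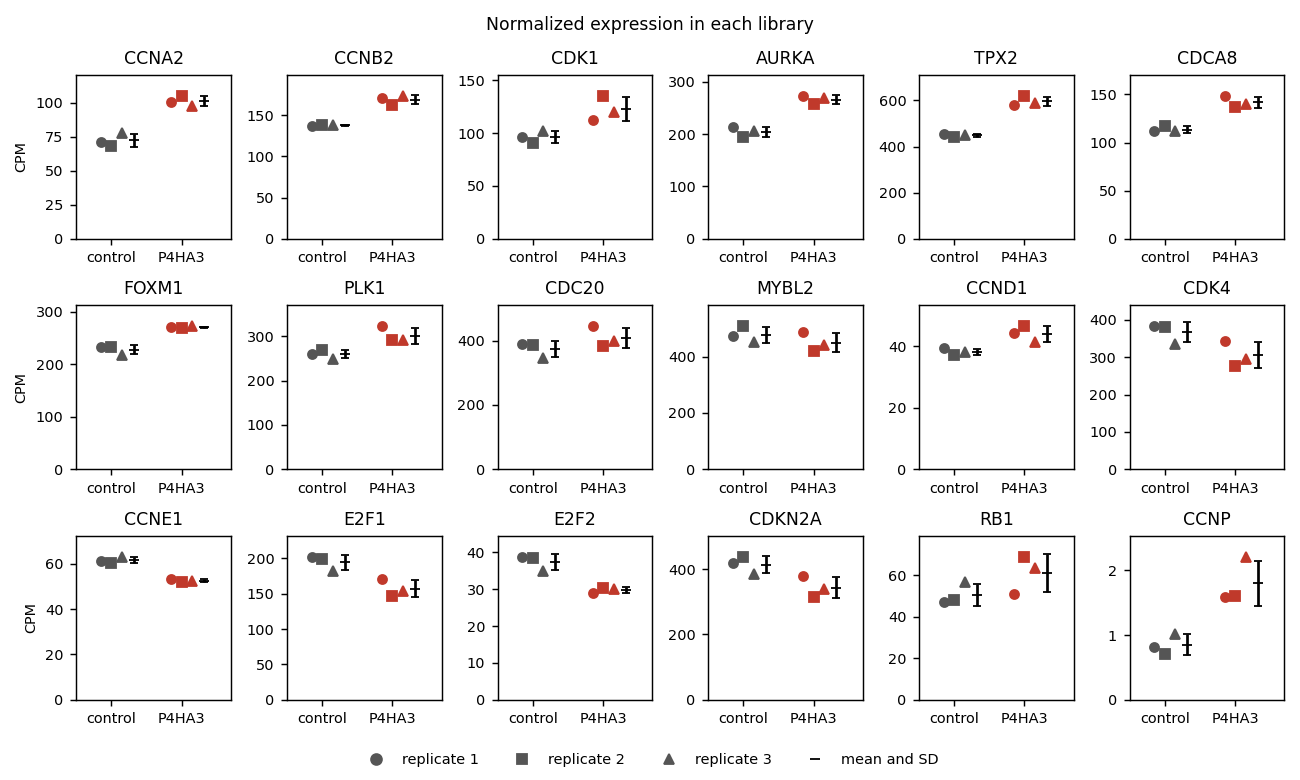
CPM (vertical axes, each from 0) in each of the 3 control (grey) and 3 P4HA3 libraries (red) for 18 members, with the symbol giving the replicate and the bars the mean and SD of each group (n = 3). The groups are apart in CCNA2, CCNB2, CDK1, AURKA, TPX2, CDCA8, FOXM1, PLK1, CCND1, CCNE1, E2F1, E2F2, CDKN2A and CCNP, and overlap in CDC20, MYBL2, CDK4 and RB1.

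Of the 9 G1/S cyclins, CDKs and their phosphatase, 8 were tested, 1 rose and 1 fell. CCND1, cyclin D1, which answers mitogens, stood at 39.3, 37.2 and 38.0 CPM in controls and at 44.2, 46.4 and 41.4 CPM with P4HA3. The groups did not overlap, but the log2 fold change of 0.21 (SE 0.0679) just missed the threshold (adjusted p = 0.0549), and passed it with the trend removed (0.22, adjusted p = 0.018). CCND2 had 3, 1 and 0 counts in controls and 1, 0 and 1 counts with P4HA3, all at or under 3 counts. It did not pass the filter on low counts, so it was not tested and no fold is given. CCND3, the D-type cyclin with the highest level per length here, had -0.14 (adjusted p = 0.128), and 0.07 (adjusted p = 0.206) with the trend removed. CDK4, a kinase partner of the D-type cyclins, stood at 382, 382 and 336 CPM in controls and at 344, 276 and 296 CPM with P4HA3, so that P4HA3 replicate 1 overlapped the controls. Its difference of -0.26 (SE 0.0857) also just missed the threshold (adjusted p = 0.0518). CDK6, the other partner, was low, with 1.60, 1.41 and 1.92 CPM in controls and 2.36, 3.73 and 2.25 CPM with P4HA3. It rose by 0.74 on the log2 scale (SE 0.227, adjusted p = 0.043), which was 0.48 and not called without P4HA3 replicate 2, and 0.48 (adjusted p = 0.0857) with the trend removed. The call of CDK6 was also lost with DESeq2 (adjusted p = 0.0546) and limma-voom (adjusted p = 0.0542).

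The 2 genes of cyclin E had differences of opposite sign. CCNE1, cyclin E1, stood at 61.2, 60.3 and 63.0 CPM in controls and at 53.3, 51.9 and 52.2 CPM with P4HA3. All P4HA3 libraries lay below all controls, and CCNE1 fell by 0.23 on the log2 scale (SE 0.0565, adjusted p = 0.0208), and by 0.15 with the trend removed (adjusted p = 0.04). CCNE2, cyclin E2, stood at 5.29, 6.24 and 5.96 CPM in controls and at 6.95, 9.51 and 7.21 CPM with P4HA3, apart but not called (log2 fold change 0.44, SE 0.14, adjusted p = 0.05002), and 0.19 with the trend removed (adjusted p = 0.215). Their partner CDK2 had 0.04, with all 6 libraries between 155 and 166 CPM, and CDC25A, the phosphatase that activates CDK2, had 0.01, with all 6 between 48.8 and 52.0 CPM. Neither passed the test.

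Of the 10 E2F factors and pocket proteins, 2 rose and 2 fell. E2F1, an activator E2F of S phase genes, stood at 202, 199 and 182 CPM in controls and at 171, 146 and 154 CPM with P4HA3. It fell by 0.31 on the log2 scale without overlap (SE 0.0693, adjusted p = 0.0155), but by 0.08, and without passing the test, with the trend removed (adjusted p = 0.191). E2F2, also an activator, lay between 35.1 and 38.8 CPM in controls and between 29.0 and 30.4 CPM with P4HA3. It fell by 0.33 (adjusted p = 0.0126), and by 0.20 with the trend removed (adjusted p = 0.0246). The third activator, E2F3, had 0.17 (adjusted p = 0.191). Of the repressors, E2F8, an atypical E2F that acts without a DP partner, stood at 10.4, 9.05 and 11.9 CPM in controls and at 12.4, 15.9 and 13.9 CPM with P4HA3, a rise of 0.42 (SE 0.126, adjusted p = 0.0399). E2F5, a partner of the pocket proteins, rose by 0.37 (adjusted p = 0.044), from between 4.36 and 5.09 CPM to between 5.79 and 6.13 CPM. The call of E2F5 was lost with DESeq2 (adjusted p = 0.126) and whenever any 1 library was left out. E2F7, the other atypical E2F, had 0.30 (adjusted p = 0.1), and E2F4, the most abundant E2F per length, 0.00 (adjusted p = 0.961).

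RB1, the retinoblastoma protein, stood at 47.3, 47.8 and 56.7 CPM in controls and at 50.9, 68.7 and 63.3 CPM with P4HA3. The groups overlapped, the log2 fold change of 0.27 did not pass the test (SE 0.11, adjusted p = 0.103), and it was 0.03 with the trend removed. The related pocket proteins RBL1 (p107) and RBL2 (p130) had 0.26 (adjusted p = 0.117) and 0.03 (adjusted p = 0.795), and RBL2 changed sign to -0.11 with the trend removed (adjusted p = 0.18).

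The 4 CDK inhibitors were split. CDKN2A, whose product p16 blocks CDK4 and CDK6, was the most abundant member per length in controls and stood there at 419, 437 and 384 CPM, against 379, 314 and 338 CPM with P4HA3. The groups were apart by a narrow margin, and CDKN2A fell by 0.27 on the log2 scale (SE 0.0778, adjusted p = 0.0369), and by 0.07, not passing the test, with the trend removed (adjusted p = 0.235). CDKN1B (p27), which inhibits the CDK2 complexes, stood at 55.3, 49.0 and 53.0 CPM in controls and rose to 60.8, 60.2 and 59.7 CPM (log2 fold change 0.20, SE 0.0634, adjusted p = 0.0491). This call was the closest to the threshold, was lost with DESeq2 and limma-voom, and held with the trend removed (0.16, adjusted p = 0.0343). CDKN2C (p18) had 0.15 without overlap (adjusted p = 0.0576) and CDKN1C (p57) 0.07 (adjusted p = 0.59), or 0.33 with the trend removed (adjusted p = 0.0209).

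CCNP had the largest fold change of the members and one of the lowest levels. It lies on the minus strand of chr19:40222208-40226697 (GRCh38) and had 20, 15 and 25 counts in controls and 37, 36 and 56 counts with P4HA3, or 0.821, 0.703 and 1.02 CPM against 1.59, 1.60 and 2.21 CPM. The groups did not overlap, and the log2 fold change was 1.08 (SE 0.225, adjusted p = 0.0117), or 1.33 with the trend removed (adjusted p = 0.00321). Leaving out 1 library at a time gave 0.90 to 1.24, and the call was lost without control replicate 1, control replicate 2 or P4HA3 replicate 3.

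**Figure D2:**
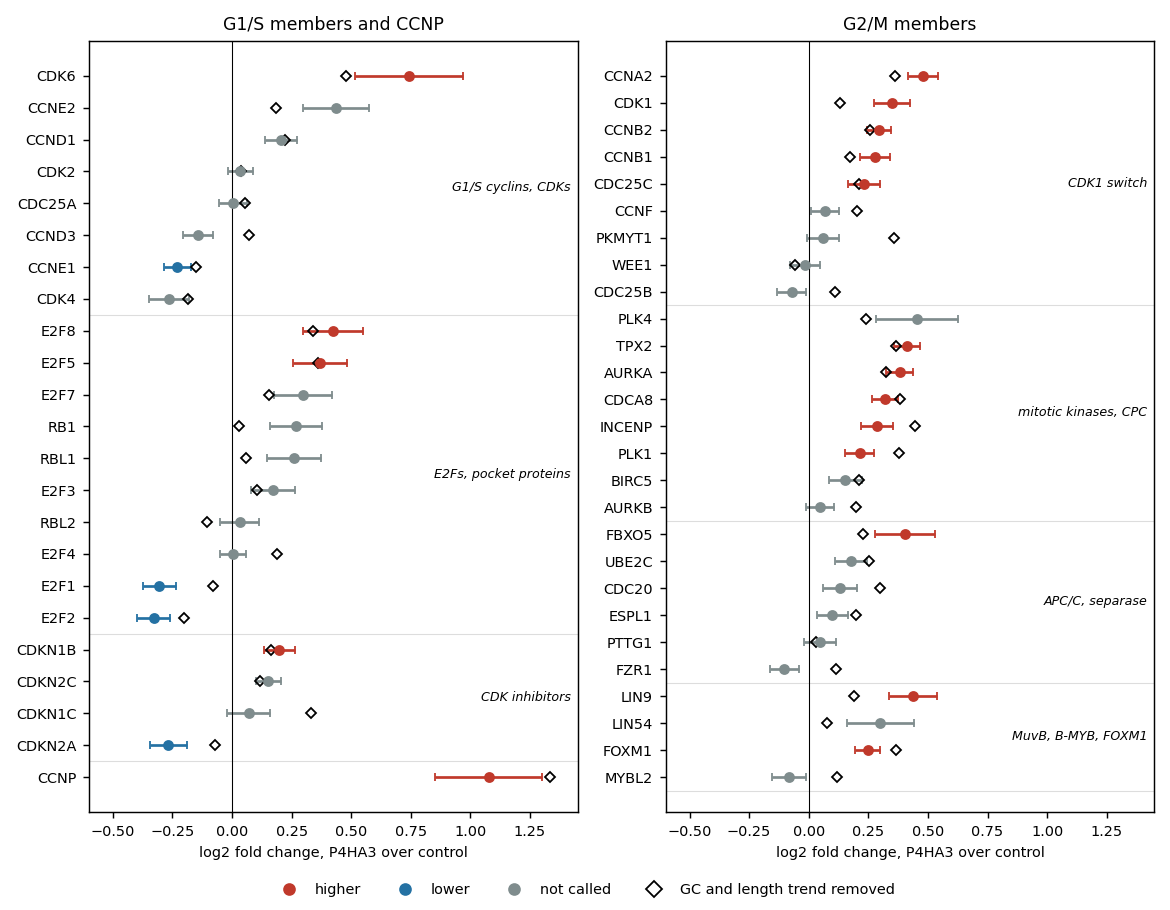
Log2 fold change of P4HA3 over control cells (horizontal axes) for the 50 tested members by role, with bars for 1 SE, colour for the call, and open diamonds for the value with the GC and length trend of each library removed. The G2/M members, on the right, lie mostly above 0, with 13 called higher, and the G1/S members, on the left, spread to both sides, with 4 called higher and 4 lower.

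Averaged over the members of a role, the libraries separated for the G2/M roles and not for all G1/S roles. The 27 G2/M members had a mean log2 CPM of 0.20, 0.22 and 0.19 above the control mean in P4HA3 replicates 1, 2 and 3, and of -0.0027, -0.00076 and 0.0035 in control replicates 1, 2 and 3. For the 22 G1/S members the P4HA3 libraries lay 0.054, 0.16 and 0.068 above it, with P4HA3 replicate 2 highest. Their highest control stood at 0.012, so the groups were apart here as well. The 8 tested G1/S cyclins, CDKs and their phosphatase were also apart, at 0.091, 0.16 and 0.023 against a highest control of 0.007. In P4HA3 replicates 1, 2 and 3, the 8 mitotic kinases and CPC members stood at 0.27, 0.31 and 0.26. The 9 members of the CDK1 switch stood at 0.22, 0.18 and 0.16. The 10 E2F and pocket genes gave 0.019, 0.22 and 0.11, so that P4HA3 replicate 1 lay within the controls. For the 4 CDK inhibitors P4HA3 replicate 2 did so, at -0.0018.

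**Figure D3:**
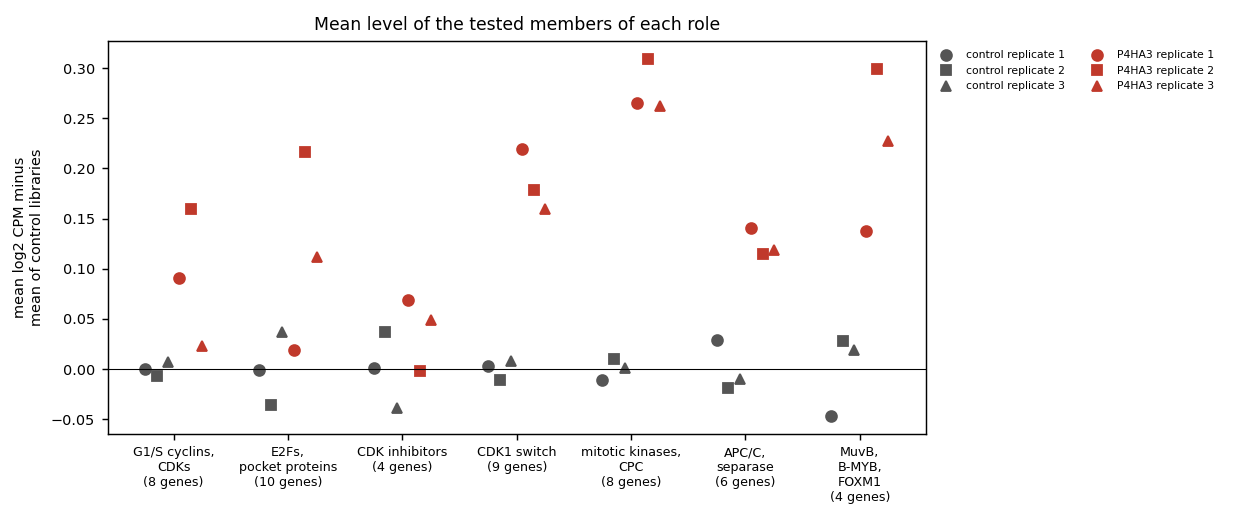
Mean log2 CPM of the tested members of each role in each library, minus the mean of the control libraries (vertical axis), for 7 roles (horizontal axis, with the number of genes), in grey for controls and red for P4HA3 libraries, with the symbol giving the replicate. The P4HA3 libraries lie above all controls for the G1/S cyclins and CDKs, the CDK1 switch, the mitotic kinases, the APC/C and the MuvB group. They reach into the controls for the E2F and pocket genes and the CDK inhibitors.

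Between genes, levels were compared per length, as CPM per kb of transcript. In controls the highest were CDKN2A at 423, UBE2C at 290, CDC20 at 227, PTTG1 at 223 and CDK4 at 196 CPM per kb. Among cyclins the order was CCNB1 (146), CCND3 (103), CCNB2 (92.6), CCNE1 (31.5), CCNF (28.9), CCNA2 (26.3), CCND1 (9.01) and CCNE2 (2.18), with CCNP (0.467) and CCND2 (0.00873) far below. Of the E2Fs, E2F4 (153) and E2F1 (72.2) stood above E2F2 (7.20) and E2F3 (5.28), and CDK6 (0.141) was far below CDK4. These orders depend on the canonical transcript chosen for each gene.

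**Figure D4:**
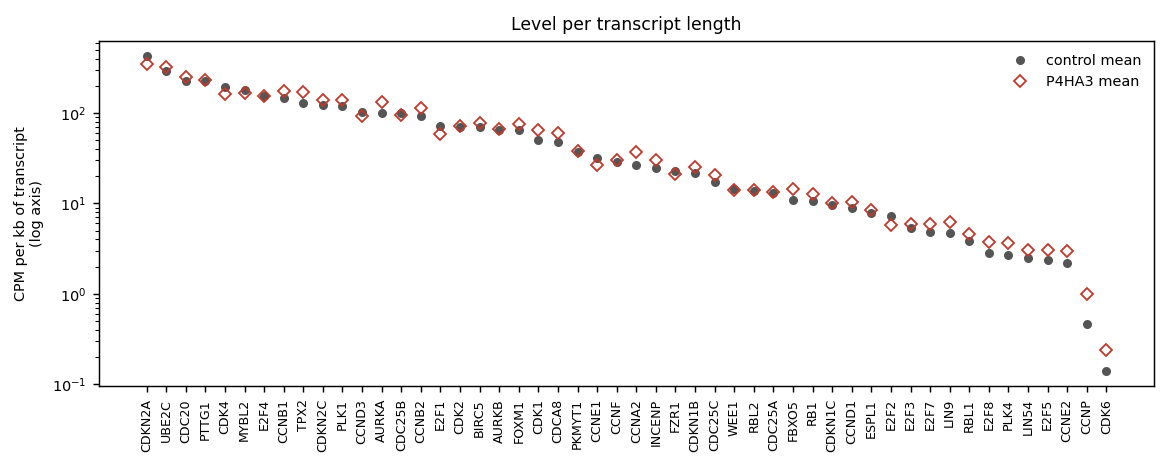
Mean CPM per kb of canonical transcript (vertical log axis) in 3 control (filled circles) and 3 P4HA3 libraries (open diamonds) for the 50 tested members, ordered by the control mean. The levels run from 423 for CDKN2A to 0.141 for CDK6 in controls, a range much wider than the difference between the groups for any member.

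Some members share exon sequence with a gene on the opposite strand, and the strand setting of the counting is not stated. The overlap was 1369 of 3094 exon bases for CDK4 (with TSPAN31), 1629 of 4397 for CCNE2 (INTS8), 1228 of 4974 for PKMYT1 (PAQR4), 997 of 5999 for E2F5 (RBIS), 782 of 4919 for FOXM1 (ITFG2), 593 of 3885 for CDKN2A (CDKN2B-AS1) and 497 of 4761 for CCND1 (LTO1). With lncRNA genes, it was 617 of 3018 for CDKN2C, 565 of 3887 for CDK2 and 553 of 4760 for PLK1, and other members had overlaps not listed here. The values of these genes are uncertain for this reason, by an amount that was not tested. The counts of CDKN2A also join the transcripts of its different products.

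Other genes of the cell cycle were taken from 6 lists of the pathway, and no list was tested as a set. Their counts stand against 9.36% higher and 11.4% lower of all genes, and 10.6% and 7.94% with the trend removed. Of 34 further G2/M genes, 24 rose and 0 fell (median log2 fold change 0.50, and 21 and 0 with the trend removed, median 0.39). The P4HA3 libraries lay wholly above the controls in 22 of the 34 and wholly below in 0, against 19.7% and 20.4% of all genes. CENPE, a kinesin of the centromere, had the largest rise at 1.62 (adjusted p = 0.0313), and CENPF, a kinetochore protein, rose by 0.91 (adjusted p = 0.0449). In both, P4HA3 replicate 2 stood far above the other P4HA3 libraries, at 7.06 against 1.93 and 2.91 CPM for CENPE and at 67.6 against 26.1 and 38.6 CPM for CENPF, and the groups of CENPF overlapped. TOP2A, the topoisomerase of chromosome condensation, rose by 0.50 (adjusted p = 0.0466) and the proliferation marker MKI67 by 0.49 (adjusted p = 0.0279), each with overlapping groups and P4HA3 replicate 2 highest.

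Of 28 S phase genes, which are known E2F targets, 6 rose and 5 fell (median 0.018, and 5 and 4 with the trend removed, median 0.0096). DBF4, the activator of CDC7, rose by 0.47 (adjusted p = 0.0105) and CLSPN, the mediator of checkpoint signals at the fork, by 0.37 (adjusted p = 0.0374), while the helicase subunits MCM5 and MCM7 fell by 0.32 (adjusted p = 0.0121) and 0.28 (adjusted p = 0.0192). Of 12 checkpoint genes and further inhibitors, 4 rose and 0 fell (median 0.15, and 4 and 1 with the trend removed, median 0.090), led by GADD45A at 0.53 (adjusted p = 0.0161) and MDM2 at 0.42 (adjusted p = 0.0327). CHEK1, the kinase of the replication checkpoint, rose by 0.27 (adjusted p = 0.0307). CDKN1A (p21) had -0.13 and did not pass the test (adjusted p = 0.23).

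Of 7 DP and MuvB partners 1 rose, MYBL1 at 0.63 (adjusted p = 0.0398), and 0 fell (median 0.060), and with the trend removed 0 rose or fell (median 0.024). Among 23 APC/C and SCF ligase subunits 5 rose and 0 fell (median 0.13, and 2 and 0 with the trend removed, median 0.049), with CDC27 at 0.38 (adjusted p = 0.0235) and ANAPC15 at 0.29 (adjusted p = 0.0296) the largest. Of 27 other cyclins and CDKs tested, most of them without a direct role in the cycle, 5 rose and 2 fell (median 0.14, and 5 and 2 with the trend removed, median 0.064). CCNJ rose by 0.41 (adjusted p = 0.0165) and CDK8, a kinase of the Mediator complex, by 0.40 (adjusted p = 0.0166), while CDK18 fell by 0.53 (adjusted p = 0.00989) and CDK9, the kinase of transcription elongation, by 0.25 (adjusted p = 0.0149). The G2/M list was thus the one with the highest median of the 6.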

How the data were processed

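RNA-seq was analysed in 6 libraries, 3 of SiHa PR and 3 of SiHa PR P4HA3. Per the methods, the authors selected poly-A RNA, kept its strand in the libraries, used STAR for alignment to GRCh38 and HTSeq for counts per gene, whereas the submitters' processing notes name HISAT2. Versions and the strand setting are not given in the sources used here. The deposited values are raw read counts per gene, with no normalization.

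Differences were tested with edgeR 4.0.16 (R 4.3.3): filterByExpr (minimum count 10), TMM normalization, and a two-sided quasi-likelihood test of the 2 groups with Benjamini-Hochberg adjustment over 15130 genes, called below 0.05. The script was tested on simulated data. The common biological coefficient of variation was 7.66%, so differences of genes near 1 CPM are limited by counting. An exact permutation test of 3 against 3 cannot go below 0.1 and was not used. Chi-square tests found no 2 libraries of a group equal within sampling noise. GC content, length and positions came from GENCODE 44, with 60463 of 60664 IDs matched. The trend of GC content and length was removed by a smooth fit for each library (mgcv 1.9.3), with the fitted values as offsets.

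Members, gene lists and alternatives were chosen with earlier results of these data known. The alternatives were DESeq2 1.42.0, limma-voom (limma 3.58.1), RLE scaling, library sizes only, other filters, a stricter threshold, a replicate block, the trend removal and leaving out each library. Any member could be named. Values in every library were given for P4HA3, for called members with a log2 fold change of at least 0.4 in size, and for 18 members set by role. Those of CCND2, CCNB2, PLK4, AURKB, DES, MYH11 and ACTG2, and those of single libraries for CENPE and CENPF, were chosen after their values were seen. From each other list at most the 2 largest rises and the 2 largest falls were named, with TOP2A, MKI67, CDKN1A and CHEK1 in any case; 1 further gene of that rule is not reported here.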

Additional observations from a re-analysis of the deposited data

How the results depend on the processing

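The 50 tested members gave 750 values under 15 alternatives, of which 599 kept their direction and side of the threshold, 18 changed sign without being called in either fit, 80 lost the call, 51 gained one and 2 reversed. The 18 members called higher and 4 called lower became 29 higher with the GC and length trend removed together with the replicate block (against 14.2% of all genes), and 2 lower with the trend removed alone. At an adjusted p below 0.01 they were 5 and 0, against 1.46% and 3.35% of all genes. Leaving out 1 library at a time gave between 5 and 23 members higher and between 0 and 6 lower, against 1.06% to 18.3% and 2.41% to 17.6% of all genes; each such fit had fewer samples. The median of the G2/M members was 0.25 with library sizes only, 0.21 with the trend removed, 0.21 with the trend removed and the block, and 0.19 to 0.25 with 1 library left out; that of the G1/S members ran from 0.088 to 0.13 with 1 library left out. FZR1 reversed to 0.12 (adjusted p = 0.0442) and MYBL2 to 0.12 (adjusted p = 0.0461) with the trend removed and the block; the cause was not tested. Whether the replicate numbers pair the libraries is not stated. Same-numbered libraries deviated with correlations of 0.25, -0.05 and 0.03, and libraries of different numbers with -0.30 to 0.27, which cannot decide it. The replicate block alone called 22 members higher and 5 lower, against 14.1% and 14.4% of all genes. Depth limits the low members CCNP, CDK6 and CCND2 most.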
